A study of Schmidtea polychroa with 24 samples.

Results

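The comparison described here set whole cocoons of Schmidtea polychroa taken 168 h after deposition against cocoons taken at 96 h. Its members are 6 of the 24 libraries of a time course, 3 at each time, chosen by the time in their labels, and the 120 h libraries between them were left aside. Schmidtea polychroa is a freshwater planarian, and the cocoons came from a sexual laboratory population kept at 20 °C with no drug, knockdown or transgene in either group. Each library pooled the RNA of 4 whole cocoons, at day 4 or day 7 of a development that ends in hatching after about 14 to 20 days. A library therefore holds embryos and yolk together, and fewer cells of a type cannot be told apart from less RNA per cell. The 96 h libraries held 1599902, 4884092 and 3334736 estimated counts in replicates 1, 2 and 3. The 168 h libraries were deeper, with 6683427, 6020918 and 9567933 counts.

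Planarian embryos develop among free yolk cells that the parent packs into the capsule with the eggs. Early blastomeres are scattered in the yolk, a temporary embryonic pharynx forms that swallows yolk cells, and the organs of the later animal are built afterwards while the temporary structures are lost. The study set each time against 4 h or against the time before it, and 168 h against 96 h is a wider step that passes over 120 h. The identifiers in the files are those of a de novo assembly and carry no gene names, so no markers of tissues could be checked and genes are described as groups. Only 4 identifiers are printed, 2 that rose and 2 that fell. A gene here is the assembler's gene, meaning the sum of its isoforms.

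Libraries of the same time resembled each other closely, and the times stood well apart. Across the 12676 genes tested, the Spearman correlation of log2 levels was 0.922 to 0.938 between 96 h libraries and 0.958 to 0.979 between 168 h libraries. Between the times it was 0.694 to 0.773, and its highest values were those of 168 h replicate 1 with the 96 h libraries. The biological coefficient of variation was 0.329 within 96 h and 0.254 within 168 h. The median log2 fold change over all genes tested was 0.10.

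Of the genes tested 49.4% changed between 96 h and 168 h, and rises were both more frequent and larger than falls. At 168 h 3794 genes were higher and 2472 were lower than at 96 h (quasi-likelihood F test of edgeR, p adjusted by Benjamini-Hochberg and under 0.05, as in all calls here). These are 29.9% and 19.5% of the genes tested. The rising genes had a median log2 fold change of 2.38, with quartiles at 1.26 and 4.70. The falling genes had a median of -1.13, with quartiles at -1.73 and -0.76. Rises of at least 16-fold made up 1152 of the rising genes, or 30.4%, while 75 of the falling genes, or 3.03%, fell that far. Of the rising genes 496 had 0 counts in all 96 h libraries, and 5 falling genes had 0 in all 168 h libraries. With these set to the bound that 3 counts per library allow, the medians were 2.08 and -1.13, and 746 genes rose and 71 fell at least 16-fold. Every 168 h library lay above every 96 h library in 3789 of the 3794 rising genes, and below in 2421 of the 2472 falling genes. Over all genes tested the libraries of the times did not overlap in 36.1% with 168 h higher and in 24.5% with 168 h lower.

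The number of falling genes moved with the libraries in the fit. Without 168 h replicate 2 it was 1488 and without 168 h replicate 3 it was 1482. When the spread was estimated from 21 libraries of 7 times, 1977 genes rose and 898 fell, and limma on the authors' normalised values called 4074 higher and 1437 lower.

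**Figure D1:**
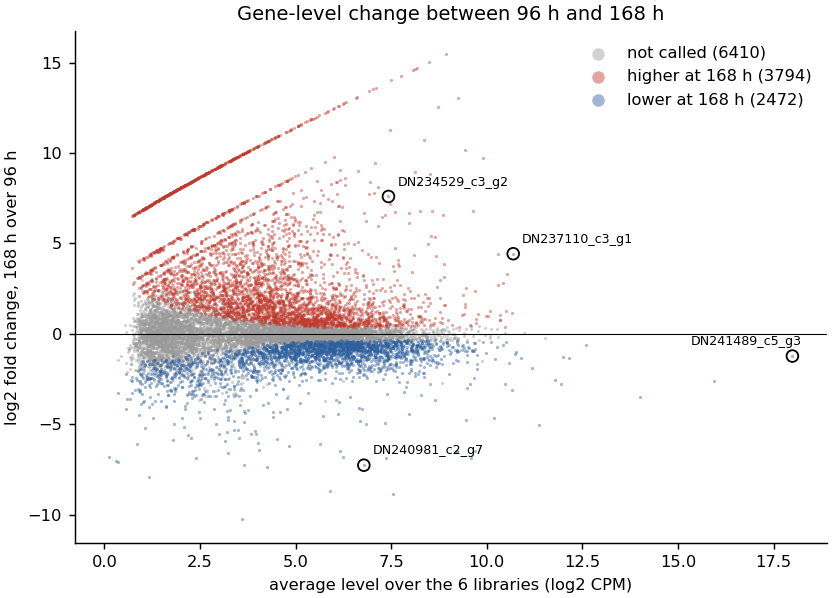
Log2 fold change of 168 h over 96 h (vertical) against the average level over the 6 libraries in log2 CPM (horizontal), 1 point per gene tested, red where higher and blue where lower at an adjusted p under 0.05. The straight rows of red points at the upper left are genes at or near 0 counts at 96 h, whose fitted fold change depends on the prior count; circles mark the 4 named genes, and the 3794 red points reach further from 0 than the 2472 blue ones.

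Rises and falls were spread differently over abundance. In the quartile of genes with the fewest counts, at a mean of 0.971 to 4.69 CPM (counts relative to the TMM-scaled library total), 25.7% rose and 6.78% fell. In the second quartile 37.7% rose and 12.4% fell. In the quartile with the most counts, at 53.0 CPM or more, 23.1% rose and 37.1% fell. These quartiles rank genes by counts and not per length. The effective length of a gene, as far as the counts and the authors' length-scaled values give it, was similar in all groups. Relative to the median of the genes tested, the median was 1.06 for rising and 1.03 for falling genes.

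The largest rise among well-measured genes was that of TRINITY_DN234529_c3_g2. This gene was at 3.44, 1.23 and 1.60 CPM in the 96 h libraries and at 261.0, 361.8 and 389.2 CPM in the 168 h libraries. The groups do not overlap, and 168 h replicate 1 was the lowest of its time. On the log2 scale the difference was 7.60, with a standard error of 0.32 by edgeR (adjusted p = 4.51e-06). In the authors' normalised signal, a value per length, it ranked 14611 of 22365 genes at 96 h and 394 at 168 h. It was also low from 4 h to 72 h on a scale common to 21 libraries, with a highest single value of 9.87 CPM in 4 h replicate 1.

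The most abundant riser was TRINITY_DN237110_c3_g1. Its 96 h libraries held 178.0, 88.2 and 174.4 CPM, and its 168 h libraries held 2826, 3027 and 3600 CPM. It rose by 4.43 on the log2 scale, with an adjusted p of 2.52e-05 and a standard error of 0.30 (edgeR). In the authors' normalised signal it went from rank 516 at 96 h to rank 3 at 168 h. From 4 h to 72 h, on a scale common to 21 libraries, its highest single value was 9.53 CPM, in 72 h replicate 3, and 9 of the 15 libraries were at 0. On that scale it averaged 113.3 CPM at 96 h and 2656 CPM at 168 h, so the 96 h level already lay above every earlier library.

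The 10 largest rises under the same rule were also low before 96 h. Their log2 fold changes ran from 5.96 to 7.60, and the highest adjusted p was 0.000211 (edgeR). All 10 had no overlap between the times, as in 3789 of the 3794 rising genes. Mean levels were 2.09 to 15.9 CPM at 96 h and 278.0 to 1578 CPM at 168 h, a contrast that follows from choosing the largest changes. At the earlier times, on a scale common to 21 libraries, the highest mean of any of them was 11.0 CPM, at 72 h.

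**Figure D2:**
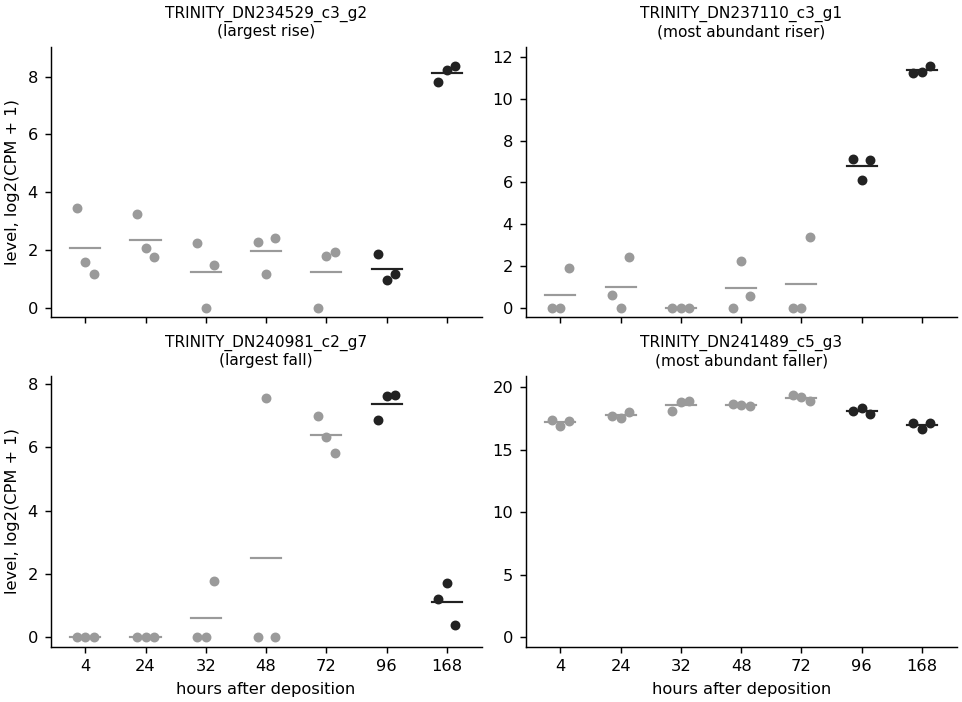
Level of the 4 named genes in log2(CPM + 1), scaled over 21 libraries, in each library of 7 times (points, the 3 replicates of a time from left to right) with the mean of each time (line); 96 h and 168 h are in black and the times the test did not use in grey. The genes of the upper row rise to 168 h, the gene at lower left is present in 1 library of 48 h, in all of 72 h and 96 h, and nearly gone at 168 h, and the gene at lower right, the most abundant one, has its highest levels at 72 h.

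The steepest rises were mostly of genes with few counts from 4 h to 72 h, while few counts at 96 h follow from how they were chosen. Of the 1152 genes that rose at least 16-fold, 837 had at most 3 counts over the 96 h libraries. These passed the low-count filter through their 168 h counts, and the size of their fitted change is not a bound. Of the same genes, 627 were at 10 CPM or more in each 168 h library and 84 at 100 CPM or more. In the 4 h libraries 935 of them, or 81.2%, had at most 3 counts in total, and 683, or 59.3%, had at most 3 over all 15 libraries from 4 h to 72 h. Among all genes tested these shares were 20.5% and 7.64%. The steep risers were chosen partly by a low 96 h level, so the shares are a description. With all 6 libraries thinned to the depth of the shallowest, 765 genes rose at least 16-fold.

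The smaller rises were mostly of genes present since 4 h. Small changes can pass the test only at high counts, and of the falls under 2-fold 92.4% were likewise at 1 CPM or more in every 4 h library. Of the 683 genes that rose less than 2-fold, 636 were at 1 CPM or more in every 4 h library, which is 93.1%. That share was 65.9% for rises of 2- to 4-fold, 28.3% for 4- to 16-fold and 4.08% above 16-fold, against 61.2% of all genes tested. The smallest rises had a median level, in log2 CPM, of 5.00 in the 4 h libraries, 4.88 in those of 96 h and 5.72 in those of 168 h.

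Counts of detected genes also leaned towards 168 h. A gene was counted as gained when it had at most 3 counts over the 96 h libraries and at least 1 CPM in each 168 h library, and as lost in the reverse case. By this rule 1204 genes were gained and 27 were lost, which is 5.38% and 0.121% of the 22365 genes listed. The rule is stricter for losses, since the 168 h libraries are deeper. With the 6 libraries thinned to equal depth 1638 genes were gained and 228 were lost. The gained genes had a median of 6.30 CPM at 168 h, and 376 of them were at 10 CPM or more in each 168 h library. Of the 1204 gained genes 742 had at most 3 counts over the 15 earlier libraries as well, and 43 had been at 1 CPM or more in all libraries of an earlier time. The most abundant gained gene had 0, 1 and 0 counts in the 96 h libraries and 6723, 9611 and 16219 counts in the 168 h libraries. The most abundant lost gene had 27, 133 and 73 counts at 96 h and 0 in each 168 h library. It was at least 33.9-fold lower, taking a floor of 3 counts per library.

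The largest fall among well-measured genes was that of TRINITY_DN240981_c2_g7. It was at 148.8, 257.1 and 256.3 CPM in the 96 h libraries and at 1.55, 2.68 and 0.358 CPM in the 168 h libraries. The groups are far apart, with 96 h replicate 1 the lowest of its time. On the log2 scale the difference was -7.27, with a standard error of 0.53 by edgeR (adjusted p = 3.23e-05). On the scale of 21 libraries this gene had 0 counts in all libraries of 4 h and 24 h. It was at 185.8 CPM in 48 h replicate 2 but at 0 in 48 h replicates 1 and 3, and at 125.6, 79.1 and 55.2 CPM in the 72 h libraries. In the authors' normalised signal it ranked 217 of 22365 genes at 96 h and 11475 at 168 h.

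The most abundant falling gene was TRINITY_DN241489_c5_g3, which took more counts than any other gene in each of the 6 libraries. It held 26.7%, 35.1% and 28.7% of the counts in the 96 h libraries and 19.8%, 15.3% and 20.2% in the 168 h libraries. On the TMM scale, which corrects for composition, its 96 h libraries averaged 364983 ± 57218 CPM and its 168 h libraries 155702 ± 28317 CPM (SD over n = 3 libraries of each time). It fell by 1.23 on the log2 scale, with a standard error of 0.22 by edgeR (adjusted p = 0.00245). The call was lost when the spread was estimated from 21 libraries, with an adjusted p of 0.285 (edgeR), and the direction stayed. Its share of counts had been 13.7% to 15.7% at 4 h and 30.7% to 49.7% at 72 h.

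The next genes by count, at ranks 2 and 3, were uneven between replicates. The gene at rank 2 held 17.7%, 3.47% and 3.64% of the counts in 96 h replicates 1, 2 and 3, and 4.47%, 0.840% and 0.926% in 168 h replicates 1, 2 and 3. Replicate 1 was the highest library of each time, and by these shares 168 h replicate 1 lay above both lower 96 h libraries. On the TMM scale of the test it lay just below them, at 38642 CPM. There 96 h replicates 2 and 3 were at 41629 and 38869 CPM. The log2 fold change of the gene at rank 2 was -2.60 (edgeR, adjusted p = 0.0483), and -1.15 without 96 h replicate 1 (edgeR, adjusted p = 0.277). The call was also lost without 168 h replicate 2 (edgeR, adjusted p = 0.160), without 168 h replicate 3 (0.155) and with 21 libraries (0.0826). The gene at rank 3 held 5.08%, 1.06% and 0.760% at 96 h and 0.527%, 0.175% and 0.236% at 168 h. Its log2 fold change was -3.51 (edgeR, adjusted p = 0.0108), with an adjusted p of 0.0564 without 168 h replicate 2 and of 0.0550 without 168 h replicate 3. Without 96 h replicate 1 it was -1.97 (edgeR, adjusted p = 0.0257).

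The most abundant genes held a smaller share of the counts at 168 h. The 100 most abundant genes of a library held 59.6%, 52.1% and 46.8% of its counts at 96 h and 36.9%, 31.0% and 35.2% at 168 h. The times do not overlap, and the mean difference was -18.5 percentage points (exact two-sided permutation test, p = 0.1, the smallest that 3 against 3 libraries can give). The genes at ranks 1, 2 and 3 had mean differences of -11.7, -6.18 and -1.99 points, so the change lay mostly in them. The 10 most abundant genes fell by more than the 100, at -20.8 points. Without the most abundant gene, the 100 differed by -12.6 points of the remaining counts. They then held 26.3% and 25.5% in 96 h replicates 2 and 3, more in 96 h replicate 1, and 18.6% to 21.5% at 168 h. Outside the 3 most abundant genes, the rising genes held 10.7% to 11.8% of the remaining counts at 96 h and 35.0% to 40.2% at 168 h. The falling genes held 50.2% to 52.5% at 96 h and 22.6% to 27.2% at 168 h. Both sets were chosen on these libraries, so these shares are a description.

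**Figure D3:**
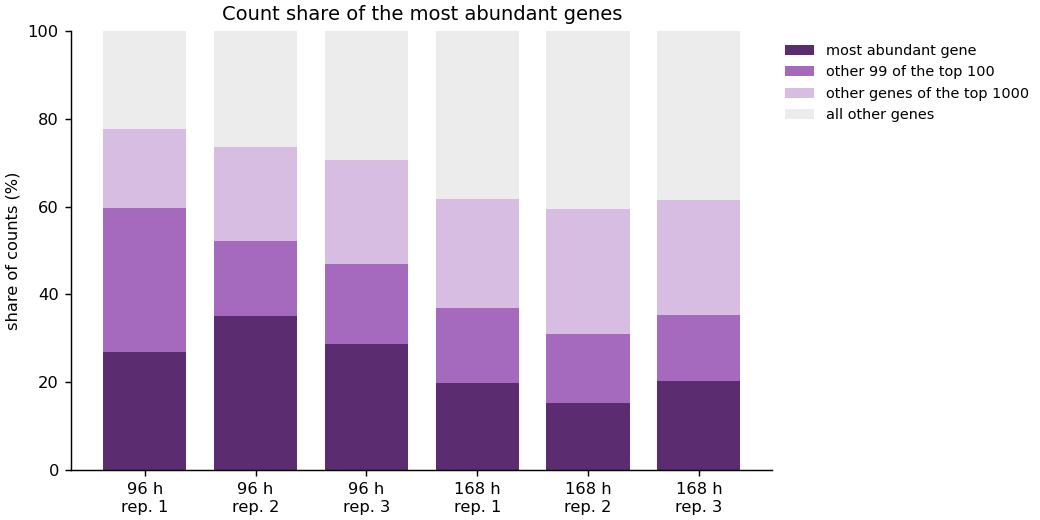
Share of each library's counts in percent, stacked from 0, for the most abundant gene, the rest of the 100 most abundant genes, the rest of the 1000 most abundant genes and all other genes. The 100 most abundant genes hold 46.8% or more of the counts in the 96 h libraries and 36.9% or less in the 168 h libraries.

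Most of the 10 largest falls were of genes that were near 0 at 4 h and present by 72 h. Their log2 fold changes ran from -4.97 to -7.27, and the highest adjusted p was 0.000353 (edgeR). None had overlapping times, as in 2421 of the 2472 falling genes. Mean levels were 32.3 to 5112 CPM at 96 h and 0.662 to 153.8 CPM at 168 h. At 4 h, on the scale of 21 libraries, 9 of the 10 had means of 0.772 CPM or less, and the other was at 116.7 CPM. At 72 h the means of the 10 genes lay between 7.10 and 1249 CPM, and in 9 of the 10 the mean at 96 h was higher still.

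The steepest falls were also followed as a group. The 75 genes that fell at least 16-fold came from 75 different assembler components. Of these, 45 were at 10 CPM or more in each 96 h library and 17 at 100 CPM or more. In the 4 h libraries 48 of them, or 64.0%, had at most 3 counts in total, against 20.5% of all genes tested. In the 4 h libraries 11 to 17 of the 75 were at 1 CPM or more, in the 72 h libraries 64 to 70, in the 96 h libraries 74 or 75, and in the 168 h libraries 29 to 35. Together they took 0.0310% to 0.0629% of the counts at 4 h, 0.302% to 1.01% at 72 h and 0.0523% to 0.0644% at 168 h.

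**Figure D4:**
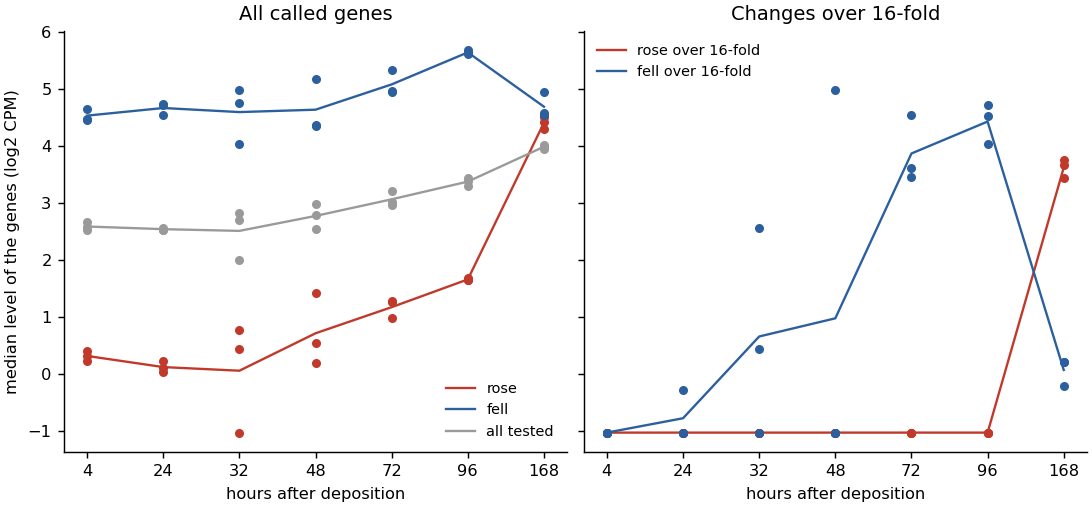
Median level in log2 CPM, scaled over 21 libraries, of the genes that rose, the genes that fell and all genes tested (left), and of the genes that rose or fell at least 16-fold from 96 h to 168 h (right), in each library of 7 times (points) with the mean of each time (lines). The sets were chosen on the 96 h and 168 h libraries; the lowest value shown, -1.03, is that of a gene with 0 counts. The 75 steep falls sit at that value at 4 h and at 3.46 or more in the 72 h libraries.

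The earlier history was tested in libraries that the late comparison did not use, by comparing 72 h with 4 h. In that comparison 856 of 9405 genes rose and 1104 fell, which is 9.10% and 11.7%. Of the genes tested in both intervals, 7801 in number, 10.6% rose early and 14.1% fell early. Of the late falling genes tested there, 475 of 2148, or 22.1%, had risen from 4 h to 72 h. They made up 57.2% of the early risers tested in both, where late falling genes were 2148 of the 7801 genes. Among the 4122 genes tested there without a late call, 6.38% had risen early and 12.0% had fallen. Another 348 late falling genes, or 16.2%, had already fallen early.

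Part of these early rises was fixed by the low-count filter. Of the 2148 late falling genes tested there, 92 had at most 3 counts over the 4 h libraries, could pass only through 72 h, and were all called higher. Among the 2056 with more counts at 4 h, 383 or 18.6% had risen early, beside 9.02% of the 7662 such genes among all tested in both. By the size of the late fall, the share was 14.7% of 980 genes that fell less than 2-fold, 21.9% of 791 at 2- to 4-fold and 20.8% of 265 at 4- to 16-fold. Of 20 such genes that fell at least 16-fold, 11 had risen early, or 55.0%. These classes were not tested against each other. Of the 75 genes that fell at least 16-fold, 29 others were at the 4 h floor and rose through the filter, and 26 did not pass it. Counting those at the floor, 40 of the 75 had risen early, and 34 to 48 with each 4 h or 72 h library left out in turn. The list itself moved with the late libraries: without 168 h replicate 1 it held 198 genes, of which 54 of 103 tested had risen early, and without 96 h replicate 2 it held 195, of which 37 of 46 had. Genes at the 4 h floor were not set aside in these counts.

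The late rising genes were followed in the same way. Of the 3794 rising genes 1531 passed the filter of the early comparison, while 1540 had at most 3 counts over the 4 h libraries. Of these 1531, 92 or 6.01% had risen by 72 h and 257 or 16.8% had fallen, beside 10.6% and 14.1% of all genes tested in both. Of the 92, 23 had at most 3 counts over the 4 h libraries and could pass the filter only through 72 h. Among the 1508 with more counts at 4 h, 69 or 4.58% had risen early, beside 9.02% of all such genes. Early falls were at 17.0% of the 1508, beside 14.4%. The median early log2 fold change of the 1531 genes was -0.33, and that of all genes tested in both was -0.05. Without 72 h replicate 1, 27 late rising genes had risen early and 77 had fallen, which is 4.61% of those tested for the latter, beside 4.80% of all.

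**Figure D5:**
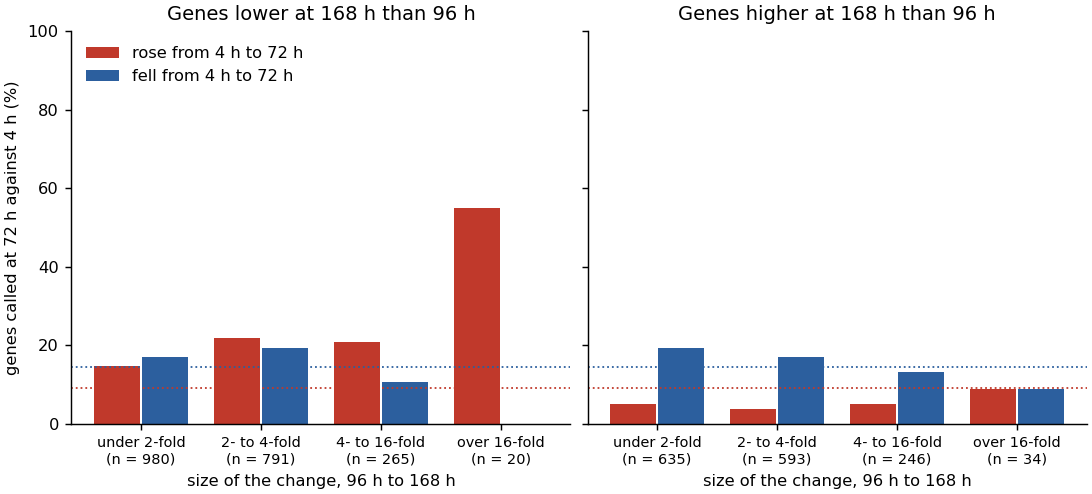
Percentage of genes with more than 3 counts over the 4 h libraries that were called higher (red) or lower (blue) at 72 h than at 4 h, by the size of their later change from 96 h to 168 h, for genes that fell later (left) and rose later (right); n is the number of such genes tested in both comparisons and dotted lines give the percentage over all 7662 of them. Early rises are at 14.7% to 21.9% in the smaller falls and at 55.0% of 20 genes in the largest.

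At 168 h the median level of the falling genes was near that of 4 h. Their median level in log2 CPM, averaged over the libraries of a time, went from 4.54 ± 0.10 at 4 h through 5.65 ± 0.04 at 96 h to 4.70 ± 0.22 at 168 h (SD over 3 libraries). Over all genes tested it went from 2.59 ± 0.07 at 4 h through 3.38 ± 0.07 at 96 h to 3.99 ± 0.03 at 168 h. The 168 h mean was below that of 4 h in 1266 falling genes, or 51.2%, and below those of all 5 earlier times in 1140, or 46.1%. Over all genes tested these shares were 32.0% and 20.8%. In another 917 falling genes, or 37.1%, the 168 h mean was above those of all 5 earlier times, against 58.3% of all genes tested. The median near that of 4 h therefore does not describe most single falling genes. For rising genes the median went from 0.31 ± 0.09 at 4 h through 1.66 ± 0.02 at 96 h to 4.41 ± 0.10 at 168 h. In 3348 of them, or 88.2%, the 168 h mean was above those of all 5 earlier times, against 58.3% of all genes tested. In another 311 rising genes, or 8.20%, the highest of the 7 time-point means was at 4 h, against 17.7% of all genes tested. These levels are descriptions, since the calls used the 96 h and 168 h values.

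Among the 168 h libraries, replicate 1 lay nearest to 96 h. Among rising genes 168 h replicate 1 was the lowest of its time in 2345, or 61.8%, and among falling genes it was the highest in 1416, or 57.3%. Over all genes tested it was the lowest in 43.1% and the highest in 32.6%. Relative to the 96 h mean, the median shift of the rising genes was 2.18 in replicate 1, 2.34 in replicate 2 and 2.43 in replicate 3 on the log2 scale. For the falling genes it was -0.89, -1.15 and -1.20. Without replicate 1, 3620 genes rose and 2389 fell.

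Few genes were called for isoforms that moved against each other. Replicates varied more at transcript level (coefficient of variation 0.811, edgeR) than at gene level (0.288). A lack of calls therefore does not show that such changes were rare. Single transcripts gave fewer calls than genes, with 3105 of 21430 higher and 937 lower at 168 h (edgeR), or 14.5% and 4.37%. Of the genes with at least 2 isoforms tested, 111 of 5083, or 2.18%, changed isoform usage (diffSpliceDGE, Benjamini-Hochberg adjusted p under 0.05). The share was 2.24% of rising, 2.14% of falling and 2.17% of uncalled genes. In 38 genes 1 isoform was called higher and another lower, and 18 of these genes had no call at gene level. The usage count was small and moved with the data: with each library left out in turn it was 22 at the lowest, without 168 h replicate 3, and 69 at the highest, without 96 h replicate 1. For transcripts these counts were 640 to 2252 higher and 170 to 638 lower, the lowest without 168 h replicate 2 and replicate 3. With 21 libraries 217 transcripts were higher and 169 lower, and the gene-level F test called 270 genes for usage.

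A change of the main isoform was seen in few of the genes whose replicates shared a main isoform. Of 4731 genes compared, 2425 had the same isoform with the highest authors' normalised signal in all 3 libraries of each time. The other genes were left aside. In 120 of the 2425, or 4.95%, the main isoform at 168 h was not that of 96 h. Of the 120, 58 rose, 24 fell and 38 had no call. Among 5 such genes at 10 CPM or more in each library, with a usage call and no gene-level call, the clearest case had a mean of 14.3 CPM in the 96 h libraries and 14.7 CPM in the 168 h libraries, a log2 difference of 0.01 (edgeR, adjusted p = 0.986). One of its 2 isoforms tested held 99.7%, 99.9% and 100% of their signal in the 96 h libraries and was listed at 0 in each 168 h library (usage, adjusted p = 0.0197, diffSpliceDGE). Whether the isoforms of a gene are splice forms or sequence variants of different cocoons was not tested.

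The assembler's genes are not always separate loci. Of the genes tested 23.9% shared an assembler component with another gene tested, at 24.1% of rising and 22.7% of falling genes. In 427 components at least 2 genes were called, all in 1 direction in 263 and in both directions in 164. Counts of such genes are uncertain where reads could be shared between near-identical copies.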

How the data were processed

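Per the labels' protocols, polyA RNA of whole cocoons was sequenced in paired 100 bp reads from stranded libraries. Tools named in the submitters' processing notes are Trimmomatic 0.32, FastQC 0.11.2, RSEM, R 4.2.2, edgeR 3.40.2 and limma 3.54.2. Which aligner was used is not given in the sources used here. Unnormalised RSEM expected counts per Trinity transcript were deposited by the authors, per the file headers. They also deposited a TMM-scaled signal per transcript whose unit is not stated. Its ratio to the counts is constant per transcript up to 1 factor per library, so it is per length. It was used for ranks, main isoforms, relative length and 1 alternative, after log2(value + 1).

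Expected counts were summed per assembler gene, rounded, filtered with filterByExpr, and tested in the 6 libraries alone with edgeR 4.0.16 in R 4.3.3 (TMM, glmQLFit, glmQLFTest). The filter kept at least 98.7% of each library's counts. The comparison of 72 h with 4 h had a fit of its own. Earlier levels used TMM over 21 libraries, without 120 h. That scaling moved the median difference of the genes tested from 0.19 to 0.29 in log2 CPM. The 120 h libraries entered 1 alternative only. Standard errors were back-calculated from the F statistic. A floor of 3 counts was 0.614 to 1.88 CPM in a 96 h library and 0.314 to 0.498 CPM in a 168 h library, covering counting error only. Libraries of a time differed by more than sampling noise, with a chi-square of at least 13.1 for each degree of freedom. The scripts were tested on simulated counts.

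The named genes were, in each direction, the called gene with the largest change and that with the highest mean CPM at the higher time among changes of at least 2-fold. Eligible genes had at least 10 CPM in every library where they were higher and over 3 counts in every other. The clearest isoform case was chosen after its values were seen. The comparison, size classes and lists were chosen with earlier results of these data known. The alternatives tried were limma-voom and, on the authors' values, limma-trend (limma 3.58.1), DESeq2 1.42.0, DESeq2's size factors in edgeR, other filters, thresholds and sets of libraries, the replicate block, thinned counts and each library left out.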

Additional observations from a re-analysis of the deposited data

How the results depend on the processing

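More genes rose than fell, and more were gained than lost, under each alternative run. With an adjusted p under 0.01 1358 genes fell, and with a 2-fold minimum 1419. Estimating the spread from 21 libraries gave 1977 up and 898 down, of which 1967 and 811 were also called in the 6 libraries. With 24 libraries 1421 rose and 737 fell, and limma on the authors' values called 1437 lower. The median log2 fold change of the genes tested lay between -0.0027 (24 libraries) and 0.31 (authors' table), and the smallest rise called was 0.35. Transcripts gave 217 up and 169 down with 21 libraries, 1869 down with DESeq2 and 1419 down with limma-voom. The gene-level F test found 270 genes with changed isoform usage. Lost genes numbered 78 at 0.5 CPM, 4 at 2 CPM and 228 with thinned counts, and 765 genes rose over 16-fold with thinned counts. The thinned counts of rising and falling genes and the tests of changes over 16-fold, of bounds for genes at 0 and of genes with over 3 counts at 4 h were added after seeing the data. The most abundant gene was no longer called with no low-count filter (edgeR, adjusted p = 0.0502), with 21 libraries (0.285), with 24 (0.410) and on the authors' table (0.313, limma); its direction stayed.

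Same-numbered replicates were not treated as pairs in the main tests. Their deviations correlated at 0.025, 0.035 and 0.22 for numbers 1 to 3. Not every library correlated best with its own number: 168 h replicate 1 did so with 96 h replicate 2, at 0.15. Whether libraries of the same number shared more than the number was not tested. With the replicate block 3463 genes rose and 2225 fell, 319 transcripts rose and 93 fell, and 6 genes changed usage. The genes at ranks 2 and 3 by counts then had log2 fold changes of -2.52 and -3.05 (edgeR, adjusted p = 9.21e-05 and 0.000704). With the block in the early comparison, 312 late falling genes had risen early, and 44 late rising genes had risen and 135 fallen early. The 312 are 14.5% of the late falling genes tested there, beside 6.04% of all genes tested in both. The 135 are 8.82% of the late rising genes tested there, near the 8.18% of all.

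With 1 library left out, genes higher ran from 3125 to 4026 and lower from 1482 to 2389, transcripts from 640 to 2252 and from 170 to 638, and usage from 22 to 69. Gained genes ran from 1273 to 1889 and lost from 49 to 113, the latter partly because fewer libraries must pass. Rises over 16-fold ran from 1137 to 1462 and falls from 93 to 198. The difference in the share of the 100 most abundant genes ran from -15.1 to -21.5 points, and that of the most abundant gene from -9.29 to -13.5. Early rises among late falling genes ran from 176 to 406 and early falls from 154 to 398. Among late rising genes these were 27 to 83 and 77 to 316, and early rises among falls over 16-fold were 34 to 48. Over all genes tested in both, 3.32% to 8.23% rose early and 4.80% to 15.4% fell early. Of the late falling genes tested there 8.03% to 17.9% rose early, and of the late rising genes 4.61% to 18.3% fell early. The causes were not tested. At its depth 96 h replicate 1, the shallowest library, had a count for 13965 genes, the others for 17231 or more.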

Other observations

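The genes that fell over 16-fold after 96 h were detected unevenly in the libraries of 24 h to 48 h. In 48 h replicate 2, 69 of the 75 were at 1 CPM or more, with a median of 4.99 in log2 CPM, while 15 and 13 were in 48 h replicates 1 and 3. At 32 h the numbers were 36, 14 and 52 in replicates 1, 2 and 3, and at 24 h they were 35, 16 and 27. The median in 48 h replicate 2 was above those of the 72 h libraries, at 3.46 to 4.55. The genes that rose over 16-fold differed less: 68, 159 and 95 of 1152 were at 1 CPM or more in 48 h replicates 1, 2 and 3. In the 96 h libraries 154 to 170 of them were. Among the 48 h libraries replicate 2 also had the highest median over all genes tested, at 2.99 in log2 CPM beside 2.80 and 2.54 in replicates 1 and 3. The same held for all falling genes, at 5.19 beside 4.36 and 4.38, and all rising genes, at 1.41 beside 0.18 and 0.54. No test was made of these values.

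The gene at rank 2 by counts held 0.0978% to 0.114% of the counts at 4 h and 1.68% to 5.42% at 24 h. Its highest share of the 21 libraries, 30.2%, was in 72 h replicate 3, where 72 h replicates 1 and 2 had 5.78% and 6.07%. The gene at rank 3 was also highest in 72 h replicate 3, at 6.16%, and next in 96 h replicate 1, at 5.08%, where the gene at rank 2 was at 17.7%. These genes were singled out after their values were seen, and whether yolk or embryo held their RNA was not tested.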
